A study of Homo sapiens with 24 samples.

Results

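The comparison asks in which genes the response to 100 nM THZ2 differed between SJSA-1 and U2-OS, established human osteosarcoma cell lines. It was formed as the change in SJSA-1, THZ2 minus DMSO, minus the change in U2-OS, on log2 intensities, so that a positive line difference is a response higher in SJSA-1. It rests on 12 of the 24 arrays of the study: 3 of SJSA-1 with 100 nM THZ2, 3 of SJSA-1 with DMSO, 3 of U2-OS with 100 nM THZ2 and 3 of U2-OS with DMSO, the solvent control. All cells were treated for 6 h and read on Affymetrix PrimeView arrays. The other 12 arrays, of both lines with 25 or 400 nM THZ2, entered the fit to estimate the spread and are set beside the result for context. The labels do not say whether the 3 arrays of a group came from separate cultures, so p-values measure the spread between these arrays, which may be technical. Each line is 1 established cell line, so a difference between the lines holds for this pair and not for a class of tumours.

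THZ2 binds covalently to CDK7, which works within the initiation factor TFIIH. CDK7 phosphorylates the C-terminal domain (CTD) of RNA polymerase II early in transcription and activates other cyclin-dependent kinases, among them those of the cell cycle and of transcript elongation. When new transcription is blocked, short-lived transcripts disappear first, while stable ones last through the treatment. SJSA-1 is known for amplification of the MDM2 and CDK4 region of chromosome 12, and both lines are known to keep the p53 gene in its normal form.

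The response to 100 nM THZ2 differed between the lines in a minority of genes. Of 16170 genes tested, the line difference passed (limma, Benjamini-Hochberg adjusted p under 0.05) in 2707, or 16.7%. It was higher in SJSA-1 in 1147 genes (7.09%) and lower in 1560 (9.65%). Differences of at least 1 on the log2 scale were rarer, with 61 genes higher (0.377%) and 161 lower (0.996%). The median line difference was -0.0031, and the 95% interval of the difference lay within 0.5 log2 of 0 in 11216 genes. Among the widest shifts were chemokine and feedback genes of the NF-kB pathway, lower in SJSA-1, and small nucleolar RNAs, MYC and PMEPA1, higher in SJSA-1. With arrays centred on the poly-A spike-in controls in place of the deposited scaling, 55 genes passed, 12 higher and 43 lower. The number of calls thus depends on that choice, though the median line difference, then -0.09, moved little.

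Each line changed broadly by itself. In SJSA-1, 3955 genes rose (24.5%) and 4035 fell (25.0%), and in U2-OS 3201 rose (19.8%) and 3571 fell (22.1%). Falls of at least 2-fold on the log2(intensity + 16) scale were found in 972 genes in SJSA-1 and 640 in U2-OS. Of the 416 genes that fell this far in both lines, 150 also passed the line difference. Of the 1560 genes with a lower line difference, 607 fell in both lines, 670 fell in SJSA-1 without passing in U2-OS, and 63 fell in SJSA-1 and rose in U2-OS (0.39% of genes tested). Of the 1147 with a higher one, 429 fell in U2-OS without passing in SJSA-1, 336 rose in SJSA-1 without passing in U2-OS, 256 fell in both, and 48 rose in SJSA-1 and fell in U2-OS (0.297%).

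**Figure D1:**
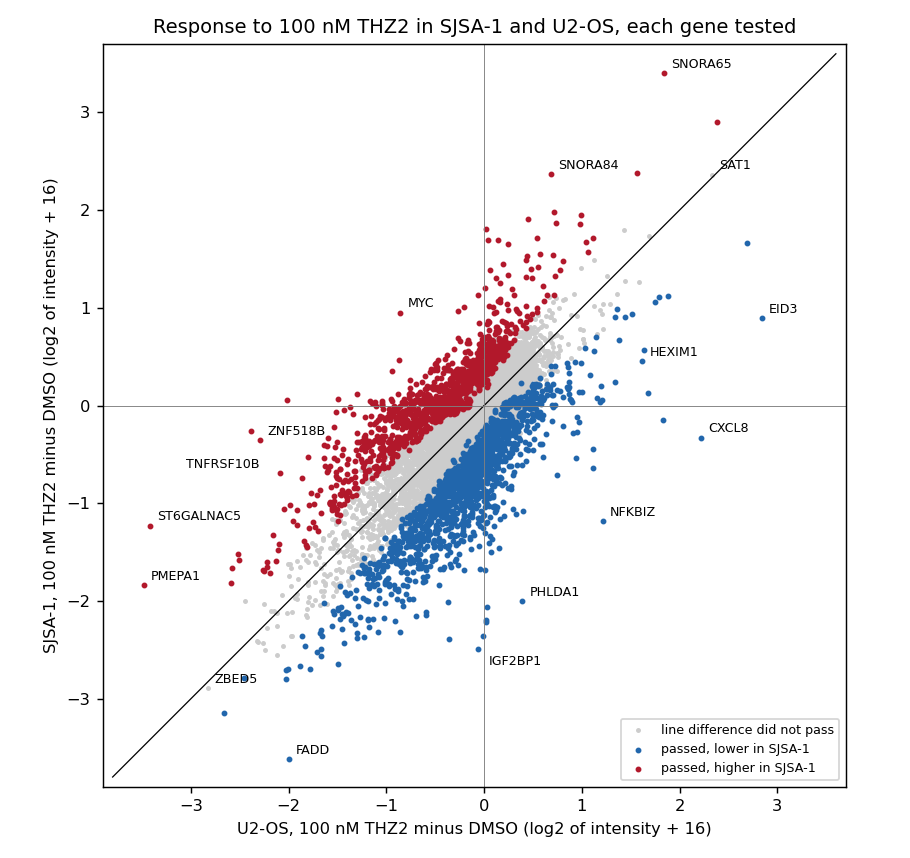
Change with 100 nM THZ2 against DMSO in SJSA-1 (vertical axis) and U2-OS (horizontal axis), log2 of intensity + 16, 1 point for each of 16170 genes. Points on the diagonal changed equally; the 1147 genes in red passed with a higher and the 1560 in blue with a lower response in SJSA-1.

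The arrays of each group resembled each other. The lowest correlation of log2 intensity with the other arrays of the group was 0.993 in SJSA-1 and 0.997 in U2-OS. Median intensities lay between 23.9 and 24.1 in SJSA-1 with THZ2, between 24.8 and 25.5 in SJSA-1 with DMSO, between 33.8 and 34.5 in U2-OS with THZ2 and between 34.1 and 34.2 in U2-OS with DMSO. The arrays of the lines appear to have been normalized apart, so a level in SJSA-1 set against one in U2-OS cannot be told apart from the normalization, whereas each change is taken against DMSO arrays of its own line. Of the mesenchymal markers, 9 of 10 lay above the intensity floor of 12.7 in every group, with summed intensities of 26723 in SJSA-1 with THZ2 and 26587 with DMSO, and 19753 in U2-OS with THZ2 and 19982 with DMSO. Nervous tissue markers summed to 250 and 218 in the same SJSA-1 groups and to 874 and 802 in the U2-OS groups. Blood and immune markers summed to 317 and 254 in SJSA-1 and to 443 and 369 in U2-OS. Epithelial markers summed to 5187 and 4426.5 in SJSA-1 and to 3876 and 3406 in U2-OS. Above the floor in every group were 8 of 11 nervous, 5 of 10 blood and 11 of 15 epithelial markers tested. Poly-A spike-in controls read higher with THZ2 than with DMSO, by 0.44 log2 in SJSA-1 and 0.36 in U2-OS. The marker lists are given because the extraction protocol in the labels names another tissue. The line difference passed in 0 of 11 nervous and 0 of 10 blood markers tested in limma, and at an unadjusted p under 0.05 in 1 nervous and 0 blood markers. Of 15 epithelial markers tested, 1 passed lower and 0 higher in limma (1 and 2 at an unadjusted p under 0.05). Over all genes tested 9.65% passed lower and 7.09% higher, and lists this short can hold 0 or 1 call at such shares. In bulk RNA, fewer cells of a kind and less RNA per cell cannot be told apart.

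NF-kB is a family of transcription factors held in the cytoplasm by inhibitor proteins. Once released it induces cytokines, chemokines and its own inhibitors, whose transcripts are short-lived. The inhibitors form the feedback that ends the response. Because the list had the lowest median line difference, the 250 bases before the transcription start are shown for its 4 members eligible to be named that passed in opposite directions in the lines, from RefSeq on GRCh38.p14, 5′ to 3′ on the strand of the gene. Capitals mark matches to the kB-type motif GGANNTTCC or its reverse complement GGAANNTCC.
CXCL8, chr4:73740319-73740568, plus strand: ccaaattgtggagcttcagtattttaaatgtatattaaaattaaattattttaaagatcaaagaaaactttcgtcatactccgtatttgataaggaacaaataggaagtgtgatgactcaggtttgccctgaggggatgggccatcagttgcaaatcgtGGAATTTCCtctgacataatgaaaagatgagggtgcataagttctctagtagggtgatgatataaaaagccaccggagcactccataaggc
NFKBIZ, chr3:101827740-101827989, plus strand: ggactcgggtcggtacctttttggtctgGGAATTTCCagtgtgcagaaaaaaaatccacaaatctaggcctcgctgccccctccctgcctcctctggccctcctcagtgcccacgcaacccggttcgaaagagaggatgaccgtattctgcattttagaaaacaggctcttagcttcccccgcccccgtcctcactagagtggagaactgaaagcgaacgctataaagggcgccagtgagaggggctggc
TNFAIP3, chr6:137867009-137867258, plus strand: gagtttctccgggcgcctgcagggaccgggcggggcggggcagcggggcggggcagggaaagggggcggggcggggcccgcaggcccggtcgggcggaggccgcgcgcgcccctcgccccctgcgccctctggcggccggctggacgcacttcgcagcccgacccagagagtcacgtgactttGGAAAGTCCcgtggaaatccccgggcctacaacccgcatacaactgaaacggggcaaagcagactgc
NFKBIA, chr14:35404750-35404999, minus strand: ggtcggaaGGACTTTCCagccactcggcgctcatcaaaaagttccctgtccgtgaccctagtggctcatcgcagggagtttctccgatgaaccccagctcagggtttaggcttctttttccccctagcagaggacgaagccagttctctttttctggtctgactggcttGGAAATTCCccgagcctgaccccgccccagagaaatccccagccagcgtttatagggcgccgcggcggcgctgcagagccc
The match began 91 bases before the start in CXCL8, 222 in NFKBIZ, 67 in TNFAIP3, and 242 and 81 in NFKBIA.

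The motif was found on either strand in 11 of the 20 list members with a promoter in the table (55.0%), against 1350 of all 35116 promoters (3.84%). The members were chosen as NF-kB targets, so this contrast does not bear on the line difference. Among members whose line difference was lower it was in 8 of 14, and among the other members in 3 of 6. A match of letters is a description and not a measured binding site.

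The NF-kB target list had the lowest median line difference of the lists examined. Of its 25 members tested, 18 passed lower in SJSA-1 and 0 higher in limma (0 higher also at an unadjusted p under 0.05), and the median difference was -0.69, beside -0.0031 over all genes. Over all genes tested 9.65% passed lower and 7.09% higher, the shares to set beside this and each later list count. In SJSA-1, 2 members rose and 16 fell, with a median change of -0.37. In U2-OS, 11 rose and 3 fell, with a median change of 0.12. In the 27 other settings apart from spike-in centring, 17 or 18 members passed lower. With spike-in centring 5 did. The median stayed negative in all of them.

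**Figure D2:**
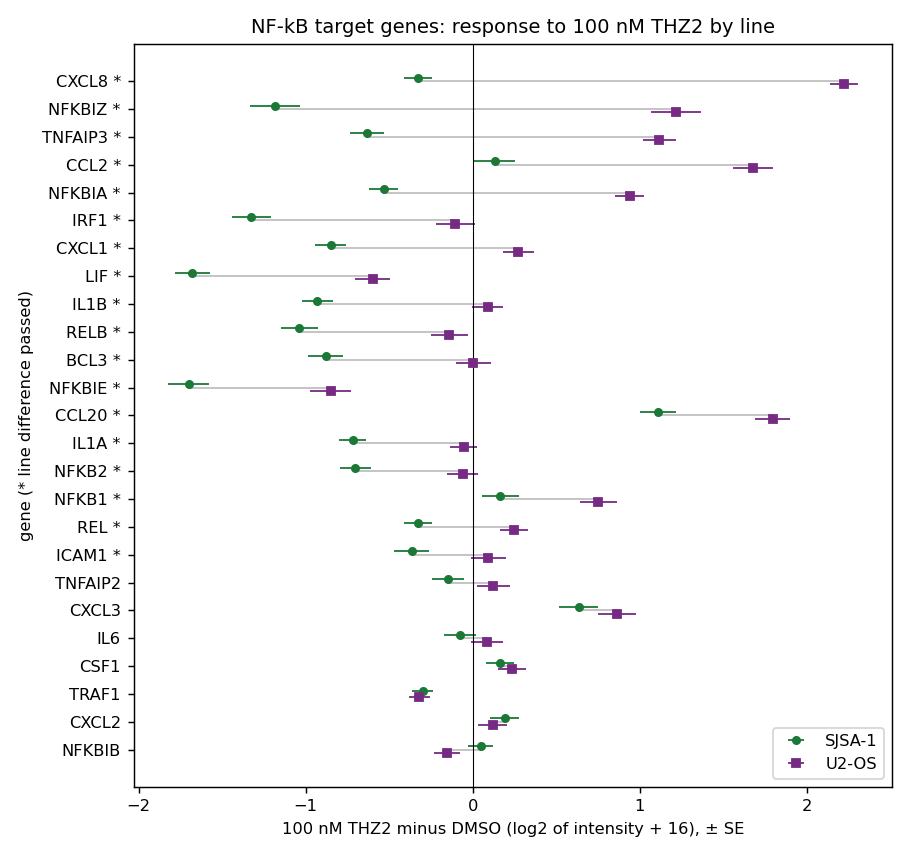
Change with 100 nM THZ2 against DMSO (log2 of intensity + 16) of the 25 NF-kB target genes tested, SJSA-1 as circles and U2-OS as squares, bars the limma SE with 3 arrays per group. A star marks the 18 genes whose line difference passed, and in all 18 the SJSA-1 symbol lies to the left of the U2-OS one.

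Among the secreted factors, CXCL8 (interleukin 8, a neutrophil chemokine) had the largest line difference in size of all genes tested. Its intensities were 2978, 2702 and 3468 in SJSA-1 with THZ2, against 3875, 3591 and 3984 with DMSO. In U2-OS they were 404, 462 and 410 with THZ2, against 76.3, 81.9 and 77.1 with DMSO. The THZ2 arrays thus lay below all DMSO arrays in SJSA-1 and far above all DMSO arrays in U2-OS. On the log2 scale CXCL8 changed by -0.33 ± 0.08 (SE, n = 3 per group) in SJSA-1 and by 2.22 ± 0.08 in U2-OS. The line difference was -2.55 ± 0.12 (limma adjusted p = 4.2e-15). SJSA-1 read high in CXCL8 already with DMSO, though levels of the lines stand on separate scales.

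CCL2, a monocyte chemokine described after its values were seen, followed among the secreted factors of the list. CCL2 read 211, 231 and 229 in SJSA-1 with THZ2 and 211, 182 and 217 with DMSO. It read 257, 319 and 309 in U2-OS with THZ2 and 83.2, 81.2 and 78.1 with DMSO. The SJSA-1 groups overlapped and the U2-OS groups did not, and the line difference was -1.55. CXCL1, another neutrophil chemokine, fell by 0.85 in SJSA-1 and rose by 0.27 in U2-OS, and CCL20, a chemokine of the mucosa, rose in both lines, by 1.11 in SJSA-1 and 1.79 in U2-OS. The interleukin 1 genes IL1B and IL1A fell in SJSA-1, with changes of -0.93 and -0.72, and had changes of 0.09 and -0.05 that did not pass in U2-OS. LIF, a cytokine of the interleukin 6 family, fell in both lines, with changes of -1.68 in SJSA-1 and -0.60 in U2-OS. These 5 were also described after their values were seen.

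The inhibitors NFKBIZ, NFKBIA and TNFAIP3 moved in opposite directions in the lines. NFKBIZ, a nuclear member of the inhibitor family that also acts as a coactivator, read 91.8, 102 and 121 in SJSA-1 with THZ2, against 276, 236 and 261 with DMSO. It read 332, 356 and 338 in U2-OS with THZ2, against 141, 141 and 133 with DMSO. All THZ2 arrays lay under the DMSO arrays in SJSA-1 and over them in U2-OS, and the line difference was -2.40 ± 0.21 (limma adjusted p = 2.0e-09). NFKBIA, the main cytoplasmic inhibitor, read 526, 584 and 519 in SJSA-1 with THZ2 and 662, 838 and 898 with DMSO, and 529, 611 and 609 in U2-OS with THZ2 and 302, 297 and 290 with DMSO. Its line difference was -1.47 ± 0.12 (limma adjusted p = 1.1e-09). TNFAIP3, the ubiquitin-editing enzyme A20 that shuts off NF-kB signalling, read 41.4, 56.1 and 53.4 in SJSA-1 with THZ2 and 91.8, 86.2 and 81.6 with DMSO, and 112, 118 and 121 in U2-OS with THZ2 and 45.5, 44.3 and 45.9 with DMSO. Its line difference was -1.75 ± 0.14 (limma adjusted p = 6.2e-10). In both NFKBIA and TNFAIP3 the groups of a line did not overlap. NFKBIE, another cytoplasmic inhibitor, described after its values were seen, fell in both lines, with changes of -1.70 in SJSA-1 and -0.85 in U2-OS, and its line difference of -0.85 passed.

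The subunits of NF-kB itself, also described after their values were seen, differed too. RELB, NFKB2 and REL fell in SJSA-1, with changes of -1.04, -0.70 and -0.33. In U2-OS the changes of RELB and NFKB2, -0.14 and -0.06, did not pass, while REL rose by 0.25. NFKB1, the p105 and p50 gene, rose by 0.75 in U2-OS and changed by 0.16 in SJSA-1, where it did not pass. The line differences of the other 7 members, TNFAIP2, CXCL3, IL6, CSF1, TRAF1, CXCL2 and NFKBIB, did not pass.

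**Figure D3:**
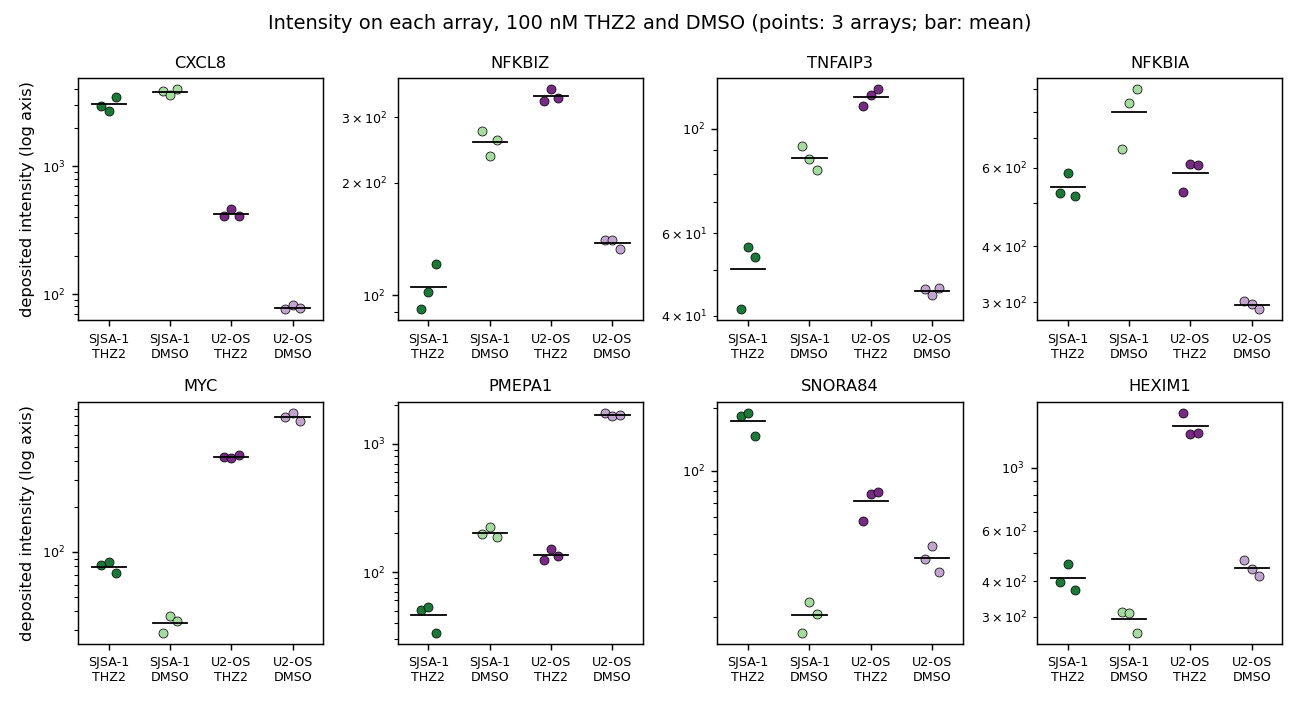
Deposited intensity (log axis, a separate range per panel) of 8 genes on each of the 12 arrays, points the arrays and bars the group means. CXCL8, NFKBIZ, TNFAIP3 and NFKBIA lie lower with THZ2 than with DMSO in SJSA-1 and higher in U2-OS, and MYC does the reverse.

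MYC moved the other way. MYC, the transcription factor that drives growth genes and whose transcript is short-lived, read 81.0, 85.6 and 72.0 in SJSA-1 with THZ2, against 28.8, 37.3 and 34.3 with DMSO. It read 425, 423 and 439 in U2-OS with THZ2, against 796, 839 and 742 with DMSO. MYC rose by 0.95 ± 0.10 in SJSA-1 and fell by 0.86 ± 0.10 in U2-OS, and the line difference was 1.81 ± 0.15 (limma adjusted p = 4.1e-10). Of the 6 genes measured in both lines that moved by at least 0.5 log2 in opposite directions, MYC alone was higher in SJSA-1. The other 5, all lower, were NFKBIZ, TNFAIP3, NFKBIA, FBXW7 and OGT. FBXW7, the substrate receptor of a ubiquitin ligase that degrades MYC and cyclin E proteins, read 47.5, 58.9 and 47.2 in SJSA-1 with THZ2 and 93.1, 99.7 and 87.4 with DMSO. It read 241, 253 and 242 in U2-OS with THZ2 and 134, 144 and 143 with DMSO, and the line difference was -1.45 ± 0.18 (limma adjusted p = 1.4e-06). OGT, the enzyme that attaches N-acetylglucosamine to nuclear and cytoplasmic proteins, fell by 0.52 in SJSA-1 and rose by 0.61 in U2-OS.

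Of the CTD kinases and partner proteins, 2 of 24 members tested passed higher and 5 lower, beside 7.09% and 9.65% of all genes. The median difference of this list was -0.18. CDK7, the target of THZ2, read 204, 246 and 228 in SJSA-1 with THZ2, against 471, 419 and 481 with DMSO, and 412, 467 and 469 in U2-OS with THZ2, against 528, 565 and 549 with DMSO. It fell in both lines, with changes of -0.97 ± 0.10 in SJSA-1 and -0.28 ± 0.10 in U2-OS, and the line difference of -0.69 ± 0.14 passed (limma adjusted p = 0.00083). CCNH, its cyclin, had a line difference of 0.01 that did not pass. That of MNAT1, the assembly factor of the same complex, was 0.41, and the call was lost when either of 2 of the 12 arrays was left out, replicate 1 of U2-OS with THZ2 (0.32) or replicate 2 of SJSA-1 with THZ2 (0.36).

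HEXIM1, which holds the elongation kinase P-TEFb inactive within a small nuclear ribonucleoprotein, rose in both lines. It read 396, 458 and 372 in SJSA-1 with THZ2, against 311, 309 and 263 with DMSO, and 1558, 1317 and 1323 in U2-OS with THZ2, against 474, 442 and 416 with DMSO. The rise of 0.45 ± 0.11 in SJSA-1 was smaller than that of 1.62 ± 0.11 in U2-OS, a line difference of -1.17 ± 0.15 (limma adjusted p = 1.5e-06). These values are of the brightest of its 5 probe sets, and the probe sets disagreed on the size of the rise in SJSA-1. With 3 of them HEXIM1 changed by 1.28, 1.83 and 2.0 in SJSA-1, against 1.72, 1.99 and 1.96 in U2-OS, so that their differences were -0.44, -0.16 and 0.04. With the mean of its probe sets the line difference of HEXIM1 was -0.54. CDK12, a CTD kinase tied to long and DNA repair genes, fell by 0.61 ± 0.09 in SJSA-1 and rose by 0.33 ± 0.09 in U2-OS. The line differences of CDK13 (-0.22), of POLR2A, the largest polymerase subunit (-0.39), and of CDK4 (-0.05) did not pass. That of CDK13 passed with values floored (-0.65), and that of POLR2A with joint quantile normalization (-0.48), with the 12 arrays of these groups fitted alone (-0.39) and without replicate 1 of SJSA-1 with DMSO (-0.47).

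Of 34 mitotic genes tested, 15 passed lower in SJSA-1, 1 higher and 18 did not pass, with a median difference of -0.36. With spike-in centring 0 passed in limma (7 lower and 0 higher at an unadjusted p under 0.05), while the median difference was -0.45. In SJSA-1 26 fell and in U2-OS 21 fell, with median changes of -0.79 in SJSA-1 and -0.36 in U2-OS. CCNB1, the cyclin of mitotic entry, read 443, 530 and 530 in SJSA-1 with THZ2 and 1342, 1361 and 1168 with DMSO, and 1435, 1497 and 1465 in U2-OS with THZ2 and 1786, 1861 and 1807 with DMSO. It fell in both lines without overlap of the groups, with a line difference of -1.03. ESPL1, the protease separase, differed by -1.09, and NDC80, a kinetochore subunit, by -1.02, each with falls in both lines. KIF14, a kinesin of cytokinesis, was the 1 member higher in SJSA-1, with changes of -0.83 in SJSA-1 and -1.56 in U2-OS that both passed. That call was lost with a pseudocount of 1 (0.60) and with values floored (0.58).

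S phase genes showed 10 of 38 lower and 2 higher, with a median of -0.11. MCM10, a replication initiation factor, fell in both lines, with changes of -1.62 in SJSA-1 and -0.35 in U2-OS. CCNE1, cyclin E1, fell by 1.36 in SJSA-1, with a change of -0.14 in U2-OS that did not pass. CDC25A, the phosphatase that activates cyclin-dependent kinases, read 64.4, 88.0 and 65.8 in SJSA-1 with THZ2, against 214, 246 and 221 with DMSO. It read 349, 356 and 364 in U2-OS with THZ2, against 311, 322 and 327 with DMSO, and only the SJSA-1 change passed. Its line difference was -1.61 ± 0.16 (limma adjusted p = 1.6e-08). Among splicing factors 10 of 38 were lower and 2 higher, led by RBM39. On its brightest probe set RBM39 fell by 1.37 in SJSA-1 and had a change of 0.08 in U2-OS that did not pass. The probe sets disagreed on U2-OS, where the others changed by -1.32, -1.29, -0.99, -0.26, 0.11 and 0.13. With the mean of its probe sets the line difference of RBM39 was -1.0. SRSF5 and SRSF7, serine and arginine rich splicing factors, fell in SJSA-1, with changes of -0.56 and -0.43, and rose in U2-OS, with changes of 0.43 and 0.30.

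Of the p53 target genes tested, 10 of 27 were lower in SJSA-1 and 1 higher, with a median of -0.27. In SJSA-1, 4 rose and 12 fell, and in U2-OS 7 rose and 6 fell. BBC3, the death activator PUMA, rose by 0.86 in U2-OS and changed by 0.17 in SJSA-1, where it did not pass. Its line difference of -0.69 did not pass with the mean of its probe sets (-0.33). The line difference of MDM2, the inhibitor of p53, was -0.58 and did not pass, though it passed with joint quantile normalization (-0.68), with quantile normalization within each line (-0.70) and with the 12 arrays of these groups fitted alone (-0.58). CDKN1A, the cell cycle inhibitor p21, rose by 0.42 in U2-OS and changed by -0.02 in SJSA-1. Its line difference of -0.44 passed, but the call was lost when any of 9 of the 12 arrays was left out, with differences between -0.59 and -0.33 over the 12 omissions.

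The line differences of death receptor genes went in both directions. FADD, the adaptor through which death receptors recruit caspase 8, read 67.6, 115 and 72.5 in SJSA-1 with THZ2, against 1046, 1201 and 1361 with DMSO. It read 130, 91.0 and 99.9 in U2-OS with THZ2, against 478, 472 and 462 with DMSO. FADD thus fell deeply in both lines, with changes of -3.62 ± 0.14 in SJSA-1 and -2.0 ± 0.14 in U2-OS and a line difference of -1.62 ± 0.19 (limma adjusted p = 5.5e-07). TNFRSF10B, the death receptor DR5, had a line difference of the other sign. It read 278, 274 and 239 in SJSA-1 with THZ2, against 422, 465 and 419 with DMSO, and 67.5, 70.4 and 91.2 in U2-OS with THZ2, against 369, 375 and 380 with DMSO. On this brightest probe set it fell in both lines, and the line difference was 1.40 ± 0.16 (limma adjusted p = 2.5e-07). With its other probe sets TNFRSF10B changed upward in SJSA-1, by 0.70 and 0.49, and by -0.90 and -0.41 in U2-OS. The line differences with these were 1.60 and 0.90. Of 10 list members tested, 4 passed lower and 1 higher.

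Of the antiapoptotic genes tested, 2 of 11 passed lower and 2 higher, beside 9.65% and 7.09% of all genes. MCL1, a short-lived guardian of mitochondria, read 488, 639 and 458 in SJSA-1 with THZ2, against 1428, 1499 and 1168 with DMSO. It read 449, 498 and 482 in U2-OS with THZ2, against 665, 669 and 652 with DMSO. MCL1 fell in both lines, with changes of -1.35 in SJSA-1 and -0.46 in U2-OS, and the line difference of -0.89 passed. BCL2L2, its relative BCL-W, fell in both lines, with changes of -0.41 in SJSA-1 and -1.60 in U2-OS, and the difference was 1.19 ± 0.12 (limma adjusted p = 3.8e-08).

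**Figure D4:**
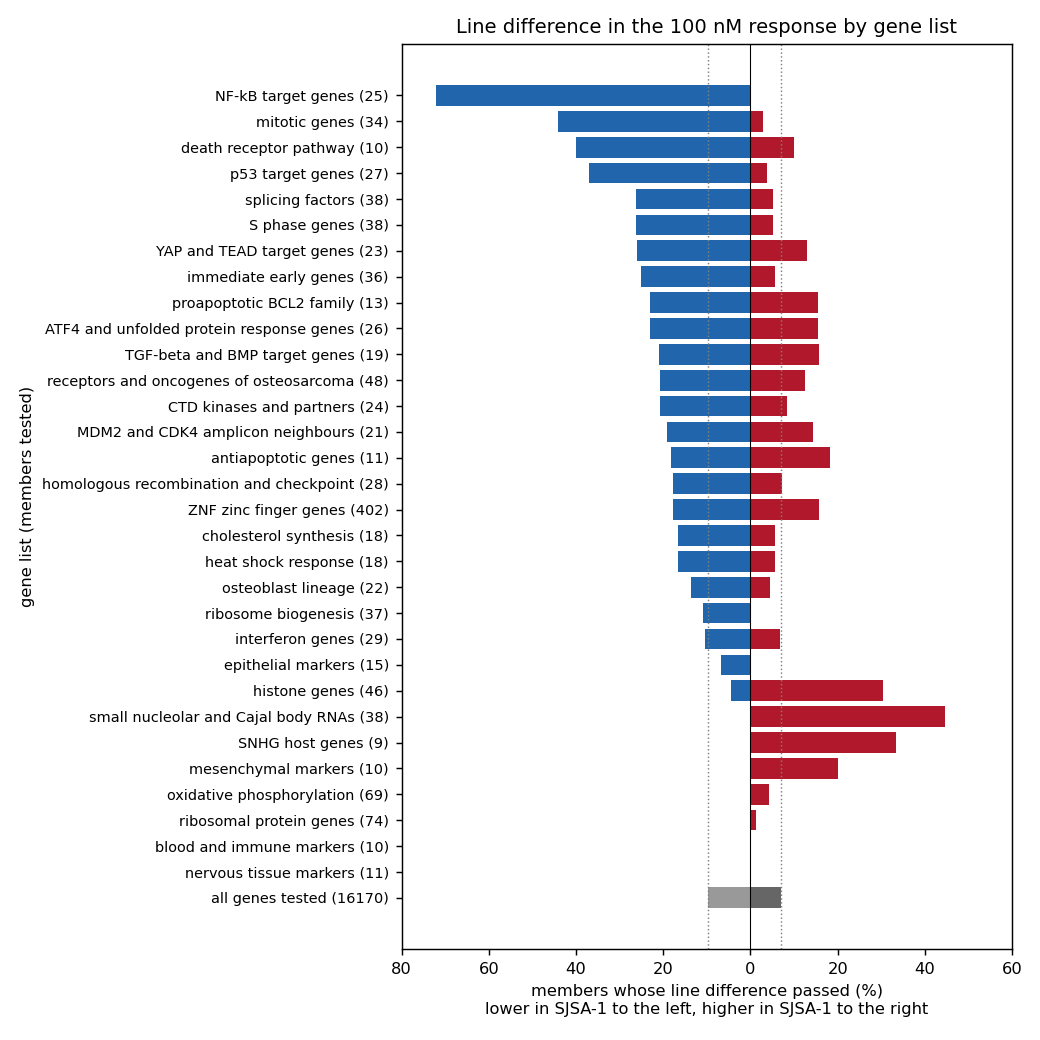
Share of the tested members of each gene list whose line difference passed, lower in SJSA-1 to the left and higher to the right, with the number tested in brackets and all genes tested at the bottom. Dotted lines mark the shares over all genes, 9.65% and 7.09%; the NF-kB list reaches furthest to the left, and the small nucleolar RNAs furthest to the right.

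Small nucleolar RNAs guide the chemical modification of ribosomal and spliceosomal RNA, and most are cut from introns of host genes. Of the 38 small nucleolar and Cajal body RNAs tested, 17 passed higher in SJSA-1 and 0 lower in limma (18 and 0 at an unadjusted p under 0.05), with a median of 0.23. In SJSA-1 25 rose, and in U2-OS 16 rose and 1 fell. Whether the probe sets read the small RNA or the host transcript around it was not tested. With spike-in centring 2 passed higher, and in the 27 other settings 14 to 17 did.

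SNORA84 read 182, 189 and 147 in SJSA-1 with THZ2, against 16.9, 23.8 and 20.8 with DMSO. It read 57.4, 78.0 and 79.1 in U2-OS with THZ2, against 38.1, 44.0 and 33.0 with DMSO. It rose in both lines, by 2.37 ± 0.11 in SJSA-1 and 0.68 ± 0.11 in U2-OS, with a line difference of 1.69 ± 0.15 (limma adjusted p = 3.3e-09). SNORA65 read 416, 410 and 396 in SJSA-1 with THZ2, against 16.4, 27.1 and 29.9 with DMSO, and 81.4, 114 and 81.9 in U2-OS with THZ2, against 16.5, 13.5 and 12.1 with DMSO. Its rise of 3.40 in SJSA-1 was the largest of the named genes in that line, and the difference was 1.56 ± 0.21. Both guide pseudouridine formation, as H/ACA box RNAs. Of the SNHG host genes 3 of 9 passed higher and 0 lower in limma (3 and 1 unadjusted). SNHG17 rose by 1.95 in SJSA-1 and 0.99 in U2-OS.

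Histone genes were also higher in SJSA-1, in 14 of 46 members tested with 2 lower, but only 26 members were measured in both lines. Histones package the DNA, and most of their genes are transcribed during S phase. H2BC15, an H2B gene measured in both lines, read 145, 163 and 133 in SJSA-1 with THZ2, against 39.1, 67.2 and 45.9 with DMSO, and 105, 99.8 and 85.2 in U2-OS with THZ2, against 87.5, 84.3 and 88.6 with DMSO. The U2-OS groups overlapped, and the line difference was 1.18. H2AC8, an H2A gene, read 261, 247 and 220 in SJSA-1 with THZ2, against 51.3, 73.0 and 69.1 with DMSO, and lay under the floor on all 6 U2-OS arrays, so its U2-OS response was not measured.

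Several genes with falls in both lines fell less in SJSA-1. PMEPA1, a TGF-beta target that feeds back on SMAD signalling, read 50.6, 53.4 and 33.6 in SJSA-1 with THZ2, against 197, 223 and 189 with DMSO, and 123, 151 and 134 in U2-OS with THZ2, against 1737, 1636 and 1666 with DMSO. It fell in both lines, with changes of -1.83 ± 0.13 in SJSA-1 and -3.48 ± 0.13 in U2-OS, a line difference of 1.65 ± 0.19 (limma adjusted p = 2.5e-07). ST6GALNAC5, a sialyltransferase of gangliosides, read 15, 13.6 and 17.1 in SJSA-1 with THZ2, against 62.2, 47.5 and 63.1 with DMSO, and 50.7, 50.4 and 44.6 in U2-OS with THZ2, against 646, 693 and 683 with DMSO. Its line difference of 2.19 ± 0.13 was the largest positive one (limma adjusted p = 1.6e-12), and its SJSA-1 arrays with THZ2 lay close to the floor of 12.7. ZNF518B, a zinc finger gene, had a line difference of 1.93, with 2 of its 3 SJSA-1 DMSO arrays and all its SJSA-1 THZ2 arrays under the floor.

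The TGF-beta and BMP list had 3 of 19 higher and 4 lower, beside 7.09% and 9.65% of all genes. SMAD6, an inhibitor of BMP signalling, fell in both lines, with changes of -1.84 in SJSA-1 and -0.46 in U2-OS. BAMBI, a decoy receptor, fell by 0.28 in SJSA-1 and rose by 0.91 in U2-OS. The median of this list, 0.03, changed sign in 3 of the 27 other settings and was also negative, at -0.06, with spike-in centring.

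SNX5, a sorting nexin of endosomes, rose in SJSA-1 and did not pass in U2-OS. SNX5 read 873, 1060 and 976 in SJSA-1 with THZ2, against 256, 296 and 315 with DMSO, and 1355, 1425 and 1464 in U2-OS with THZ2, against 1240, 1271 and 1335 with DMSO. Its U2-OS change of 0.14 did not pass, and the line difference was 1.55 ± 0.12 (limma adjusted p = 1.8e-10). These values are of the brightest of 4 probe sets. With 2 of the others SNX5 had changes of -0.29 and -0.04 in SJSA-1 and line differences of -0.24 and 0.19, and with the mean of its probe sets the line difference was 0.61. Immediate early genes, induced by growth signals within minutes, had 9 of 36 lower and 2 higher. EGR1 rose by 1.49 in SJSA-1 and 0.43 in U2-OS, whereas IER3 rose by 0.20 in SJSA-1 and 1.20 in U2-OS.

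Other large falls were found in SJSA-1 with no fall that passed in U2-OS. PHLDA1, a pleckstrin homology domain protein linked to apoptosis, read 75.1, 89.9 and 68.6 in SJSA-1 with THZ2, against 331, 367 and 377 with DMSO, and 71.9, 77.0 and 80.1 in U2-OS with THZ2, against 55.3, 57.0 and 50.6 with DMSO. The THZ2 arrays lay under the DMSO arrays in SJSA-1 and over them in U2-OS, and the line difference was -2.39 ± 0.14 (limma adjusted p = 1.3e-12). IGF2BP1, a binder of IGF2 and MYC messenger RNA, read 38.6, 43.7 and 35.0 in SJSA-1 with THZ2, against 272, 335 and 274 with DMSO. Its U2-OS arrays read 12.6 to 17.2 with THZ2 and 16 to 17 with DMSO, close to the floor, which leaves little room for a fall, and the line difference was -2.43 ± 0.13. TIPARP, a mono-ADP-ribosyltransferase induced by the aryl hydrocarbon receptor, read 66.3, 99.7 and 69.1 in SJSA-1 with THZ2, against 311, 284 and 252 with DMSO, and 92.1, 90.6 and 85.9 in U2-OS with THZ2, against 92.4, 90.1 and 94.3 with DMSO. Here the U2-OS level lay well above the floor and its groups overlapped, with a line difference of -1.64 ± 0.14.

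NUP153, a nuclear pore protein, read 121, 169 and 137 in SJSA-1 with THZ2, against 750, 600 and 519 with DMSO, and 294, 274 and 294 in U2-OS with THZ2, against 355, 390 and 384 with DMSO. It fell in both lines, with changes of -2.01 in SJSA-1 and -0.37 in U2-OS, and the line difference was -1.64 ± 0.19. EID3, a subunit of the SMC5 and SMC6 complex, rose in both lines: it read 97.7, 109 and 104 in SJSA-1 with THZ2, against 54.6, 44.0 and 46.9 with DMSO, and 342, 369 and 380 in U2-OS with THZ2, against 37.5, 36.6 and 36.7 with DMSO. The line difference was -1.95 ± 0.13 (limma adjusted p = 2.1e-11).

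The brightest probe set stands for each gene, and the mean over a gene's probe sets gave differences over 1.5 times smaller in 47 of the 136 genes chosen for naming that passed, of which 32 still passed. Among those described above, PHLDA1 then differed by -1.34, IGF2BP1 by -1.40, MCM10 by -0.77 and SMAD6 by -0.60, and all 4 passed. MCL1 differed by -0.59, ESPL1 by -0.53, OGT by -0.45, SRSF5 by -0.65, EGR1 by 0.69 and BCL2L2 by 0.38, and these 6 passed too.

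Some genes could be compared in 1 line alone, as 270 of those tested were measured in SJSA-1 alone and 2559 in U2-OS alone. These counts rest on the same floor for arrays normalized apart, so their contrast cannot be told apart from the normalization. BNC1, the epithelial transcription factor basonuclin 1, read 23.4, 27.9 and 20.3 in SJSA-1 with THZ2, against 206, 185 and 172 with DMSO, and DKK1, a secreted Wnt inhibitor, 117, 184 and 140 against 495, 495 and 512. Both lay under the floor on all 6 U2-OS arrays. BCL11A, a transcriptional repressor, read 77.2, 82.1 and 85.7 in U2-OS with THZ2, against 471, 486 and 529 with DMSO, and lay under the floor on all 6 SJSA-1 arrays. Their line differences passed, and with the mean of the probe sets were -1.10 for BNC1 and 0.89 for BCL11A, but they set a change in 1 line against a gene not measured in the other. Among the 12746 genes measured in both lines, 2321 passed (895 higher and 1426 lower), or 18.2%.

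Among genes whose line difference was confined by its interval to within 0.5 log2 of 0 were some of the widest responses. ZBED5, a gene derived from a transposase, read 22.6, 23.1 and 18.5 in SJSA-1 with THZ2, against 296, 215 and 280 with DMSO, and 45.4, 50.2 and 54.0 in U2-OS with THZ2, against 457, 450 and 446 with DMSO. It fell in both lines, with changes of -2.89 ± 0.12 in SJSA-1 and -2.83 ± 0.12 in U2-OS, and the line difference was -0.06. SAT1, the enzyme that acetylates polyamines for breakdown, read 1060, 929 and 969 in SJSA-1 with THZ2, against 184, 163 and 190 with DMSO, and 405, 413 and 419 in U2-OS with THZ2, against 63.3, 73.0 and 70.7 with DMSO. It rose by 2.36 ± 0.08 in SJSA-1 and 2.34 ± 0.08 in U2-OS, and the line difference of 0.03 did not pass, though it passed with the mean of the probe sets (0.38) and with a pseudocount of 64 (0.27). Ribosomal protein genes, whose transcripts are stable and abundant, had 1 of 74 higher and 0 lower in limma (4 and 1 at an unadjusted p under 0.05), and oxidative phosphorylation genes 3 of 69 higher and 0 lower (9 and 1 unadjusted).

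RUNX2, the master regulator of bone-forming cells, had a line difference of -0.45 that did not pass, though it passed with the 12 arrays of these groups fitted alone and with the mean of its probe sets (-0.33). Of the osteoblast lineage genes 1 of 22 was higher and 3 lower, beside 7.09% and 9.65% of all genes.

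The same line difference at the other doses shares its DMSO arrays with that at 100 nM, so the values are given side by side only. At 25 nM, 174 genes passed (1.08%), 31 higher (0.192%) and 143 lower (0.884%). At 400 nM 7385 passed (45.7%), 2329 higher (14.4%) and 5056 lower (31.3%), where the U2-OS arrays form a normalization set apart from the other U2-OS arrays. The line difference of CXCL8 was -0.23 at 25 nM, -2.55 at 100 nM and -3.23 at 400 nM, and that of NFKBIZ was -0.32, -2.40 and -3.55 at the same doses. MYC had 0.33, 1.81 and 2.07, and in SJSA-1 its change was 0.22 at 25 nM, 0.95 at 100 nM and -0.42 at 400 nM. SNORA84 had line differences of 0.45, 1.69 and 0.24, so that it was widest at 100 nM. HEXIM1 had 0.42, -1.17 and -0.53. ST6GALNAC5 had -1.43 at 25 nM, 2.19 at 100 nM and 3.17 at 400 nM, a change of direction between the low and the middle dose.

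**Figure D5:**
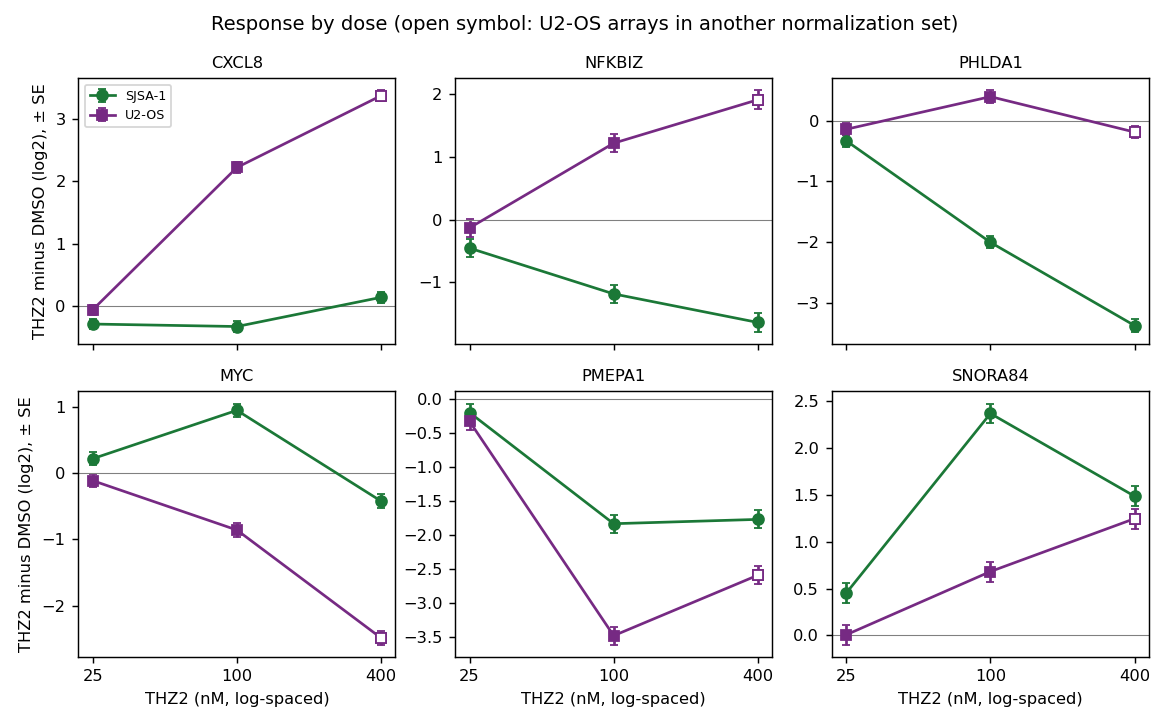
Change against DMSO (log2 of intensity + 16) at 25, 100 and 400 nM THZ2 in SJSA-1 (circles) and U2-OS (squares) for 6 genes, bars the limma SE with 3 arrays per group, and the open square the U2-OS arrays of another normalization set. The lines differ by at most 0.45 at 25 nM and lie further apart at 100 nM in each panel, and for SNORA84 they differ by 0.24 at 400 nM (1.49 in SJSA-1 and 1.25 in U2-OS).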

How the data were processed

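RNA of U2-OS and SJSA-1 cells was read on 24 PrimeView arrays, 3 in each of 8 groups taken from the labels. The deposited values hold 1 intensity per probe set and array, not on a log scale. MAS5 and RMA are both named, per the submitters' processing notes, without a version or a word on which made these values. Arrays of the lines shared next to no identical values, nor did U2-OS arrays with 400 nM THZ2 and the other U2-OS arrays, so 3 sets were taken as normalized apart.

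Of 49372 probe sets, the 44994 that name a single gene were used; 1832 name several, 2473 none, and 79 were controls. The probe set with the highest mean log2(intensity + 16) stood for its gene. A gene was tested where its highest group mean reached 12.7, the 30th percentile of the deposited intensities, as 16170 of 18132 genes did. It was called measured in a line where its mean with DMSO or with 100 nM THZ2 reached that floor. Adding 16 makes log2 changes of dim genes smaller than those of the intensities themselves.

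The limma 3.58.1 model (R 4.3.3) had 8 group means over all 24 arrays, 16 residual degrees of freedom, eBayes moderation and an intensity trend. Adjustment was by Benjamini-Hochberg over all genes tested within a contrast, at 0.05. With 3 arrays against 3, exact permutation of single genes reaches no two-sided p under 0.1. Array number limits all precision. The procedure was tested on simulated data. Python 3.11.15 and pandas 2.3.3 handled the tables.

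The comparison, the gene lists and the naming rule were chosen with earlier results of these data known, and lists were described by counts and medians only. Eligible to be named were 13 fixed genes (the CDK7 complex, CDK4, CDK12, CDK13, POLR2A, MYC, RUNX2, MCL1, MDM2, CDKN1A and FADD); the 12 largest differences in each direction among genes that passed, were measured in both lines and had the same sign in at least 2 of 3 of their probe sets; up to 8 in each direction that moved oppositely in the lines by at least 0.5 log2 each; up to 3 members of each list in its main direction and up to 2 in the other; the 8 largest shared falls and 4 largest shared rises; and the 4 largest differences in each direction among genes measured in 1 line alone. The text names a part of these. Genes outside the rule are said to be chosen after their values were seen or are named to complete a list.

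Alternatives were centring on array medians, on poly-A spike-ins or on ribosomal protein genes; quantile normalization over all arrays or within each line; no filter, a stricter one, or only genes measured in both lines; probe sets averaged by gene, or taken singly; pseudocounts of 1 and 64; eBayes without the trend; the 12 arrays alone; U2-OS 400 nM arrays left out; replicate number as a block; each array left out; and, added after seeing the data, intensities floored at 12.7 without a pseudocount.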

Additional observations from a re-analysis of the deposited data

Results flagged for a closer look

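The response to 100 nM THZ2 differed between SJSA-1 and U2-OS in 2707 genes, by the interaction of line and treatment in limma. Among the genes named here, 14 passed in each line by itself in opposite directions, 12 of them lower and 2 higher in SJSA-1. The lower ones, with their line differences, were CXCL8 (-2.55), NFKBIZ (-2.40), PHLDA1 (-2.39), TNFAIP3 (-1.75), NFKBIA (-1.47), FBXW7 (-1.45), BAMBI (-1.20), OGT (-1.13), the receptor tyrosine kinase gene EPHA2 (-1.01), SRSF5 (-0.99), CDK12 (-0.95) and SRSF7 (-0.74). The higher ones were MYC (1.81) and SLC7A11 (0.93), the cystine and glutamate exchanger, which read 141, 150 and 149 in SJSA-1 with THZ2, against 126, 94.4 and 94.4 with DMSO, and 525, 575 and 565 in U2-OS with THZ2, against 790, 787 and 791 with DMSO. Over all genes tested, 63 passed in opposite directions with a lower and 48 with a higher response in SJSA-1. Groups of 3 arrays are too small for the test of single outlying samples, so none was run.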

How the results depend on the processing

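Spike-in centring changed the counts of genes passing most. With it 55 genes passed the line difference, 12 higher and 43 lower in SJSA-1 (78.2% lower, against 57.6% with the deposited scaling), all of them by at least 1 log2 (12 and 43), and 43 passed among genes measured in both lines. SJSA-1 and U2-OS by themselves had 4186 and 3006 genes passing, and the medians of their changes were -0.39 and -0.30, against 0.06 in both with the deposited scaling. The spike-in level ranged from 6.4 to 7.18 log2 among the SJSA-1 DMSO arrays, against 5.42 to 5.43 among the U2-OS DMSO arrays. Of the 136 named genes that passed, 105 lost their call with it, while 97 kept it in every other setting, array omissions included. Spike-in centring moved the line difference of each gene by the same small amount, so the sizes changed little. MYC had 1.72 against 1.81, CXCL8 -2.64 against -2.55 and CCNB1 -1.12 against -1.03. MYC and CXCL8 still passed, and CCNB1 did not (limma adjusted p = 0.23). Counting each probe set by itself gave 5867 passing, 2621 higher and 3246 lower, with 138 and 294 of at least 1 log2, 4807 measured in both lines, and 18093 in SJSA-1 and 13831 in U2-OS by themselves; more features were tested there. The number of differences of at least 1 log2, higher and lower, was 40 and 79 with the mean of the probe sets, 135 and 331 with a pseudocount of 1, 24 and 43 with a pseudocount of 64, and 182 and 324 with floored values, an alternative chosen after seeing the data. Array omissions gave 2225 to 3228 genes passing, 885 to 1424 higher and 1306 to 1804 lower, 60 to 88 higher and 133 to 202 lower by at least 1 log2, and 1887 to 2842 among genes measured in both lines. They gave 6626 to 7971 genes in SJSA-1 and 5180 to 7029 in U2-OS by themselves. The difference of GINS1 turned to -0.15 with the mean of the probe sets, against 0.50 with the brightest. Its other probe sets had differences of -0.49 and -0.47. Why the probe sets disagreed in direction was not tested. With the replicate number as a replicate block within each line 2815 genes passed, 1206 higher and 1609 lower, and no named call changed. Correlations of the deviations of same-numbered THZ2 and DMSO arrays were -0.33, 0.42 and 0.05 in SJSA-1 and -0.06, 0.17 and -0.04 in U2-OS. Deviations from a group mean are not independent in groups of so few arrays, so these values cannot decide whether the numbers pair the samples. Signal near the floor of 12.7 limits what falls can be seen. Of the genes tested, 2559 were measured in U2-OS alone, 270 in SJSA-1 alone and 595 in neither. The same floor was used for arrays normalized apart, so the contrast of 2559 with 270 cannot be told apart from the normalization.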

Other observations

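Zinc finger genes of the ZNF family, many of which encode transcriptional repressors, had line differences in both directions, with 63 of 402 higher in SJSA-1 and 71 lower. Only 266 of the 402 were measured in both lines. The median difference was -0.03 over all 402 and -0.14 over those 266. With spike-in centring 1 passed higher and 0 lower, and in the 27 other settings 19 to 79 passed higher and 60 to 81 lower. In each line more members fell than rose (191 fell and 29 rose in SJSA-1, 185 fell and 40 rose in U2-OS). Neighbours of MDM2 and CDK4 on chromosome 12, where amplification is known in SJSA-1, gave 3 of 21 higher and 4 lower. Copy number was not measured, so which of these neighbours are amplified was not tested. METTL1, a tRNA methyltransferase, fell in both lines, with changes of -2.20 in SJSA-1 and -0.91 in U2-OS, and CTDSP2, a phosphatase of the polymerase CTD, fell by 1.12 in SJSA-1 with a change of -0.20 in U2-OS that did not pass. The CTDSP2 call was lost with the mean of its probe sets (-0.32).

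Targets of YAP and TEAD, the effectors of the Hippo pathway, had 6 of 23 lower and 3 higher. AMOTL2, an angiomotin that binds YAP, fell in both lines, with changes of -1.24 in SJSA-1 and -0.34 in U2-OS, whereas PTPN14, a phosphatase that restrains YAP, rose by 0.99 in SJSA-1 and 0.32 in U2-OS. The AMOTL2 difference of -0.91 was -0.39 with the mean of its probe sets. Of the ATF4 and unfolded protein response genes 6 of 26 were lower and 4 higher. DDIT3, the stress factor CHOP, fell in both lines, with changes of -1.67 in SJSA-1 and -0.42 in U2-OS.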
